A study of Mus musculus with 12 samples.

Results

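The course of gene expression with age in mouse lung was described here over all 12 of the 12 libraries, with age in months as a continuous term, so that each gene has a slope per month. Mice were of C57BL/6NCr, which is a substrain of C57BL/6, and whole lungs were taken at 4 ages, written 6M, 12M, 20M and 30M by their months, with 3 libraries of poly-A RNA at each age. No treatment, genotype or sex is given in the labels, and age is the only difference between the groups that they name. A slope was fitted for the 18407 genes with enough counts, of 55487 in the table, and the 4 age means of each gene were then read to tell a steady slope from a late step. Steady slopes and late steps can give the same slope per month, because a straight line through 4 ages is drawn upward by a high last age alone.

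Lung tissue holds macrophages in the air spaces (alveolar macrophages) and in the walls between them (interstitial macrophages), with lymphocytes, blood vessels and the alveolar type 1 and type 2 cells that form the gas exchange surface and make surfactant. Ageing lung is known for a gain of immune cells, which includes cells that present antigen on MHC molecules and cells that answer interferons, the cytokines of antiviral defence. Interferon-stimulated genes are switched on through a GAAA-rich element bound by STAT and IRF factors, and genes of macrophages and other myeloid cells often hold a purine-rich GAGGAA element, bound in them by PU.1, the product of Spi1. In whole tissue, fewer cells of a type and less RNA per cell cannot be told apart.

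Promoters were read from RefSeq (GRCm38.p6, 250 bases before to 50 after a RefSeq start of the gene), which held one for 361 of the 494 genes called for the slope. The RefSeq start nearest to the start of the counted gene was taken, at any distance. For Cybb and Gbp5 the window lies inside the counted gene, and for Itga2b and C1qc most of it does. The 4 sequences that follow belong to genes with a late step and hold a paired GAAA motif, shown in capitals, which is GAAA, then 2 bases of any kind, then GAAA again; they were chosen with the results known. Cybb encodes the membrane subunit of the phagocyte oxidase, Itga2b an integrin chain of platelets, and Gbp5 and Irgm2 are GTPases induced by interferon gamma. They lie at chrX:9469275-9469574 (minus strand), chr11:102469834-102470133 (minus strand), chr3:142496684-142496983 (plus strand) and chr11:58214727-58215026 (plus strand).
Cybb: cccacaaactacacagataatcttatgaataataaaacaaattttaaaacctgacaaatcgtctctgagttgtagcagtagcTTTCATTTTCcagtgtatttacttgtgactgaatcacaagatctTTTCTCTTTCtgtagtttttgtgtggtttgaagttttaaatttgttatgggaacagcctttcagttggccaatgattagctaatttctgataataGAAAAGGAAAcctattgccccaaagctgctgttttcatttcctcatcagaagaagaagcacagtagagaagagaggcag
Itga2b: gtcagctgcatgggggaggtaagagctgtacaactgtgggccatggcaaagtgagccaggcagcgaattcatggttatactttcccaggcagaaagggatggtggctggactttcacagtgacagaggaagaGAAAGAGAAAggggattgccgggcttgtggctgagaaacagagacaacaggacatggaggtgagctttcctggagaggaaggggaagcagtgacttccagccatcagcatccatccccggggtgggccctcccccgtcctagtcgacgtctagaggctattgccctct
Gbp5: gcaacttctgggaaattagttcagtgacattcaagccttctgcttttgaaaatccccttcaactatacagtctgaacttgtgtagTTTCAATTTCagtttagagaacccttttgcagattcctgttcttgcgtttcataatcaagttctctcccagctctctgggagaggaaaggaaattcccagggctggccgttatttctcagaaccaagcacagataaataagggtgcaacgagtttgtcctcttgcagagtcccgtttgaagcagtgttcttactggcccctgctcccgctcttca
Irgm2: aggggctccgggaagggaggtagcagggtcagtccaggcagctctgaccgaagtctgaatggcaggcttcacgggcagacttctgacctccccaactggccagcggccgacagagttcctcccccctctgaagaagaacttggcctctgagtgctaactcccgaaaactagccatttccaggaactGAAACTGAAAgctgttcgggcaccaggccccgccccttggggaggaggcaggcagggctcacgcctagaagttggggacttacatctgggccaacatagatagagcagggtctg

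The next 3 sequences belong to genes with a steady rise and hold GAGGAA, in capitals. Slc11a1 encodes a metal transporter of the phagosome, Pld4 an endolysosomal exonuclease of immune cells, and C1qc a chain of complement C1q. They lie at chr1:74374953-74375252 (plus strand), chr12:112760405-112760704 (plus strand) and chr4:136892865-136893164 (minus strand). Both strands were searched for both motifs, so that a match on the other strand reads as TTTC, 2 bases and TTTC, or as TTCCTC, and matches of the motifs may share bases.
Slc11a1: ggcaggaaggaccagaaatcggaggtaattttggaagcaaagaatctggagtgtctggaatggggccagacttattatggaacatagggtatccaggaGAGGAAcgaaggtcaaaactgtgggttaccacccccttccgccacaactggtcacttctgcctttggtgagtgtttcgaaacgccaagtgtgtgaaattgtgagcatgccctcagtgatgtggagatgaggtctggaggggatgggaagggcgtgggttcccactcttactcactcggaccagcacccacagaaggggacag
Pld4: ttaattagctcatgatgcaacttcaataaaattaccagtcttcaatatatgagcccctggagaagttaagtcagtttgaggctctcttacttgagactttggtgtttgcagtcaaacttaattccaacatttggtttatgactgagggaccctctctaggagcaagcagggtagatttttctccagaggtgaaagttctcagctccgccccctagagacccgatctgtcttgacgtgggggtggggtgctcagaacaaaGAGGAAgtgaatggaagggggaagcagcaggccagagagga
C1qc: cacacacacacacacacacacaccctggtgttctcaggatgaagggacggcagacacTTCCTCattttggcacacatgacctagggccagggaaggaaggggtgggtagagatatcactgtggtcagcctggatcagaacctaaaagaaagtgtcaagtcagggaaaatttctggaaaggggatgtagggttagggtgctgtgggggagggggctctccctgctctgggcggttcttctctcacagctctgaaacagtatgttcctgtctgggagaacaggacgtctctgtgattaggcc

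The paired GAAA motif occurred in 3.24% of the 12644 promoters of tested genes, in 13.6% of those of the rising genes and in 8.33% of those of the falling genes. Among rising genes it was in 32 of 137 promoters of the late step class (23.4%) and in 9 of 153 of the steady class (5.88%). Of those 32 genes, 7 are on the interferon lists used here and 25 are not. These lists are not complete, so that the 25 can include genes that interferons induce. Several of the 32 belong to the same gene families, such as Gbp3, Gbp5 and Gbp7 or Pilra, Pilrb1 and Pilrb2, and were counted separately. Late step genes also had a lower median GC content of transcripts than steady rising genes, at 47.8% against 52.9%. The part of either in the motif shares was not tested. GAGGAA occurred in 27.1% of all promoters and in 29.2% of those of falling genes, but in 44.5% of those of rising genes, with 47.4% in the late step class and 40.5% in the steady class. The size of the difference between the classes in the paired GAAA motif varied with how the shapes were read. With age means taken without 3 libraries whose expression followed gene GC content, named in the next paragraph, the motif was in 17.4% of late step and 14.4% of steady promoters. With each library's GC trend removed the shares were 18.1% and 8.89%, and with the best single shape fitted to each gene 22.8% and 6.74%. Among genes of the same shape in all 4 readings it was in 28.6% of late step and 10.3% of steady promoters. These matches are a description of the letters in a window, not of bound sites.

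Libraries had 12152066 to 15058628 counts, and none was a copy of another of its age. Set against the 6M mean, a gene's expression moved with its GC content in 20M_221 (Spearman rho = 0.358), 20M_222 (0.465) and 30M_220 (0.328), and less in 12M_208 (0.229); in the others rho lay between -0.0869 and 0.0518. 20M_222 also held skeletal muscle transcripts, with 2726 CPM (counts scaled to library size, with TMM factors) over the skeletal muscle list, against 15.2 to 54.1 CPM in the other libraries. The slope over all ages was called for none of the 8 skeletal muscle genes tested with edgeR, DESeq2 or limma voom, and none had an unadjusted p under 0.05 with edgeR. For the slope over 6M to 20M all 8 had an unadjusted p under 0.05 upward, and none had without 20M_222. Leaving out the 3 libraries with a GC trend, 20M_221, 20M_222 and 30M_220, leaves 20M_213 alone at 20M. Every shape read without them therefore rests on that single library at 20M.

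Over the 4 ages, far more transcripts rose than fell. The slope was called for 494 genes (2.68% of 18407; edgeR's quasi-likelihood test, Benjamini-Hochberg adjusted p under 0.05), of which 461 rose (2.5%) and 33 fell (0.179%). The median slope of the rising genes was 0.0589 log2 units per month, which is a fitted rise of 1.41 log2 units over the 24 months, and 346 of them rose more than 2-fold by the fit. The falling genes had a median slope of -0.0315, or -0.76 log2 units over 24 months, and 12 fell more than 2-fold. The median slope of all tested genes was 0.000412. In 459 of the 461 rising genes every 30M library lay above every 6M library, which held for 9.89% of all tested genes. All 33 falling genes had every 30M library below every 6M library, which held for 8.66%. Without the 3 libraries with a GC trend, 326 of the 461 rising genes and 10 of the 33 falling genes were called again, and with the GC trend removed 425 and 25 were. Every one of the 494 slopes kept its sign in both settings.

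The share of the 30M minus 6M difference in log2 CPM that fell in each interval gave the shape of a gene. A gene was steady when all 3 intervals moved with its slope and none held 70% or more of the difference, and a late step when the interval between 20M and 30M alone held 70% or more and no interval ran against it by over 30%. Of the 461 rising genes, 220 were steady (47.7%), 174 were late steps (37.7%), 13 were middle steps between 12M and 20M (2.82%), none was an early step and 54 were uneven (11.7%). Of all tested genes 8.2% were steady and 5.49% late steps. Of the 33 falling genes 24 were steady, 6 were middle steps, 2 were late steps and 1, Cdkl2, a protein kinase gene, was uneven. By months alone the 3 intervals would hold 25, 33.3 and 41.7% of a straight course. The medians over the rising genes were 20.1, 16.2 and 63.5%, so that the last interval held more than its months. The falling genes had medians of 15.8, 53.3 and 28.3%, with the largest share between 12M and 20M. Without the 3 libraries with a GC trend the medians were 19.2, 23.5 and 59.8% for the rising genes and 15.1, 32.7 and 46.6% for the falling genes, so that the largest share of the falls was then after 20M.

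**Figure D1:**
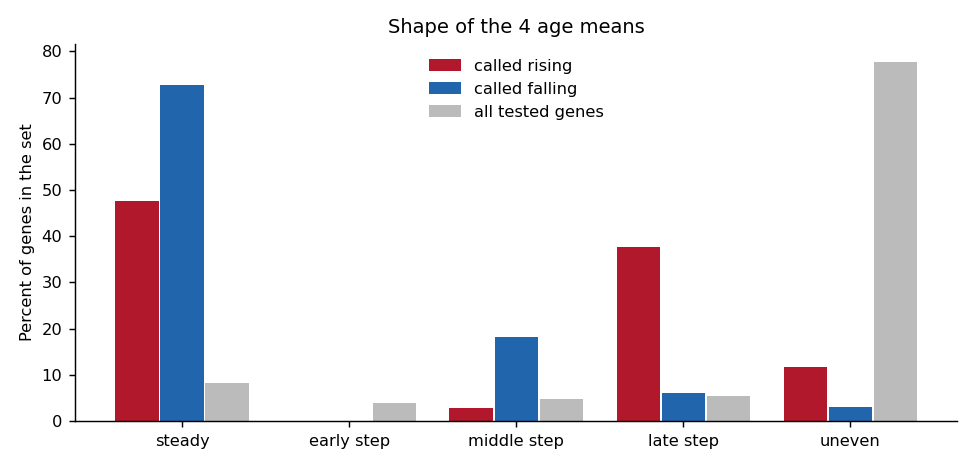
Shape of the 4 age means, in percent of the genes in each set (bars): 461 genes called rising (red), 33 called falling (blue) and all 18407 tested genes (grey). Steady genes made up 47.7% of the rising and 72.7% of the falling set, and late steps 37.7% and 6.06%.

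The classes have a soft border. Of the called genes, 57 had between 65 and 75% of their difference in the last interval, 20 of them steady and 37 late steps. The steady genes nearest to the limit were Lrrc25, a leukocyte membrane protein, at 69.2%, Fgr, a myeloid tyrosine kinase, at 69.3% and Metrnl, a secreted cytokine, at 69.3%. Late step genes near to it were Lst1, a leukocyte transcript of the MHC region, at 70.3% and Gata3, a T cell transcription factor, at 70.7%. Steady rising genes had a median GC content of 52.9% and late step genes one of 47.8%, against 49.7% for all tested genes. Read on age means without the 3 libraries with a GC trend, 240 rising genes were steady and 124 late steps, and with the trend removed 196 were steady and 204 late steps. A fit of the best single shape gave 253 steady and 187 late steps. The reading without the 3 libraries has 20M_213 alone at 20M, where the late step class stood at 0.497 log2 units over the 6M mean. That class stood at 0.23 in 20M_221 and at -0.000827 in 20M_222, so a change of class in that reading can come from 20M_213. Of the 33 falling genes, 22 were steady, 3 middle steps and 6 late steps without those libraries. In all 4 readings 124 rising genes were steady, 72 were late steps, and 10 falling genes were steady. The part of GC content in the shape of the other genes was not tested.

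**Figure D2:**
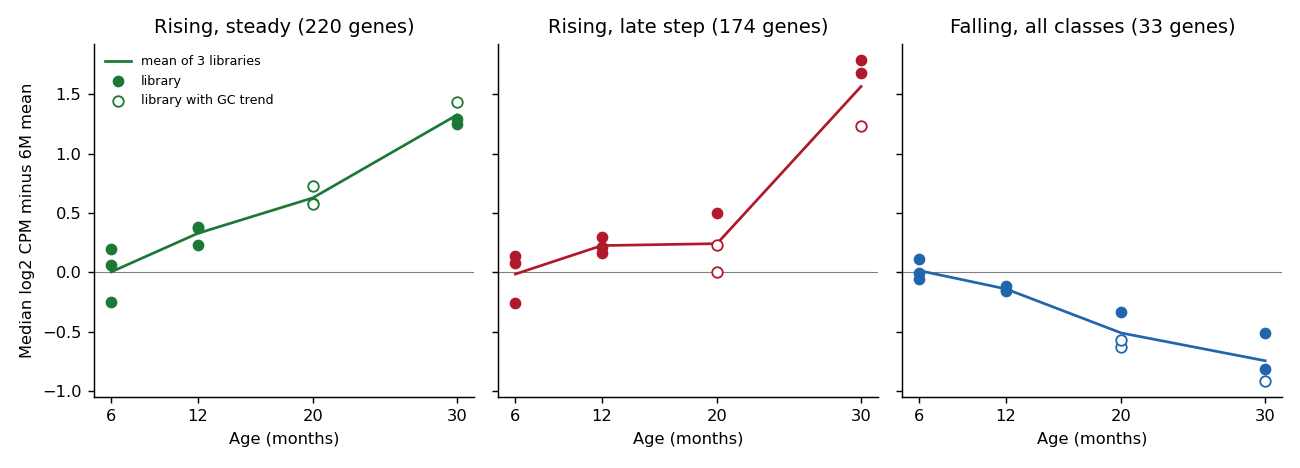
Median over each class of log2 CPM minus the 6M mean (vertical axis), per library (points) against age in months, with the mean of the 3 libraries of each age (line); open points are 20M_221, 20M_222 and 30M_220. The steady class lay between 0.576 and 0.727 at 20M, whereas in the late step class 20M_221 and 20M_222 were at 0.23 and -0.000827 and 20M_213 at 0.497.

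The medians of the classes by library show the same dependence. At 30M the late step class stood at 1.79, 1.68 and 1.23 log2 units over the 6M mean in 30M_216, 30M_218 and 30M_220, and at 20M at 0.497, 0.23 and -0.000827 in 20M_213, 20M_221 and 20M_222. The libraries with a GC trend were the lowest of their age there. In the steady class, at 1.25, 1.29 and 1.44 at 30M and at 0.581, 0.727 and 0.576 at 20M, 30M_220 and 20M_221 were the highest of their age and 20M_222 was level with 20M_213. The falling class was at -0.508, -0.814 and -0.914 at 30M and at -0.336, -0.628 and -0.569 at 20M, with the libraries of the GC trend lowest at both ages.

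With edgeR over all libraries no gene's course was called as different from a straight line. The departure from a line (2 further terms for age) was called for none of the 18407 genes with edgeR (0%), where the smallest adjusted p was 0.721 and 1062 genes (5.77%) had an unadjusted p under 0.05. DESeq2 called 38, limma voom none, and edgeR without the 3 libraries with a GC trend 2. The rate between 20M and 30M minus the slope of the 6M, 12M and 20M means was likewise called for none (0%), with unadjusted p under 0.05 for 467 genes upward (2.54%) and 848 downward (4.61%). DESeq2 called 17 upward and 26 downward, voom none, and edgeR without the 3 libraries with a GC trend 4 downward. Among the rising genes the later rate was the faster one in 376 of 461, and in all 174 of the late step class, which was defined by that difference. The earlier slope was positive in 453 of the 461. It had an unadjusted p under 0.05 in 146 of the 220 steady genes and in 3 of the 174 late steps. The classes were read from the same libraries and limit the earlier slope, so these counts are a description and not a test. The joint test over the 4 ages called 205 genes (1.11%), all but 3 of them higher at 30M than at 6M. Of these higher genes, 96 were late steps and 70 steady. The joint test called 146 without the 3 libraries with a GC trend.

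**Figure D3:**
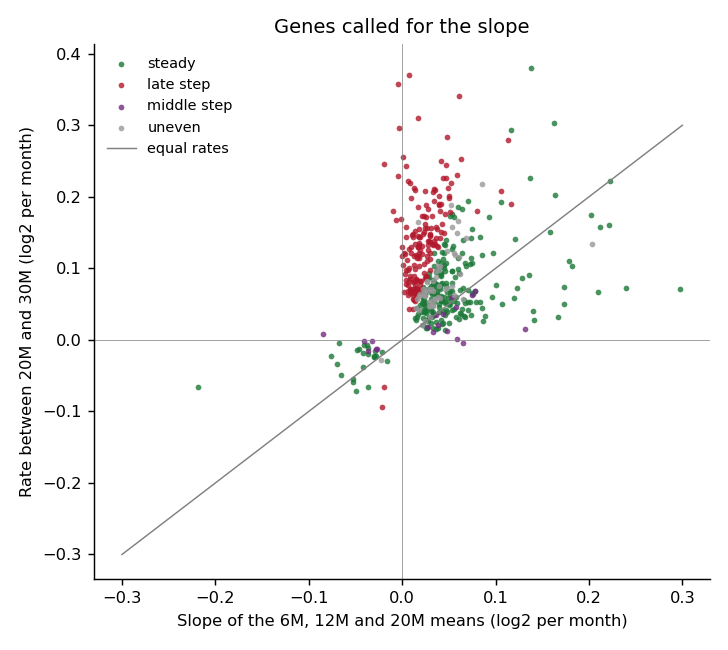
Rate between 20M and 30M against the slope of the 6M, 12M and 20M means, both in log2 units per month, for 488 of the 494 called genes (6 lie outside the axes); colours give the shape and the line marks equal rates. Rising late steps lie above the line near an earlier slope of 0, and most falling genes lie above it too, where the later fall was slower.

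A slope over 6M to 20M alone was called for 3 genes upward (0.0163%) and none downward (0%; voom called 605 and 668, DESeq2 53 and 7, and 987 genes upward (5.36%) and 579 downward (3.15%) had an unadjusted p under 0.05). The 3 are C130026I21Rik, Gm16028 and Igha, named because they are so few. C130026I21Rik, a gene of the Sp100 region (ENSMUSG00000052477, chromosome 1, 84992690 to 85270566, GRCm38), had 4.70, 2.39 and 2.18 CPM at 6M, 11.0, 8.0 and 9.12 at 12M, 18.8, 18.6 and 14.4 at 20M, and 25.1, 23.1 and 25.1 at 30M. No library of an age overlapped with those of another age. Its slope was 0.173 per month over 6M to 20M (SE 0.0186, adjusted p = 0.00732) and 0.113 over all ages (SE 0.0155, adjusted p = 0.00175). It held 54.1% of its difference in the interval between 6M and 12M. Gm16028 is an antisense gene inside it, and since the use of strand in counting is not given, their reads cannot be told apart.

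The neighbours of C130026I21Rik moved with it. Between 84992690 and 85709998 on chromosome 1, 17 genes were tested and 13 rose, 11 of them steady and 2 late steps, and 12 of the 17 had an unadjusted p under 0.05 upward over 6M to 20M. The edges of this stretch were chosen after its values were seen, and it holds near-identical copies, whose reads the counting could split. It includes Sp100, Sp110 and Sp140, which encode chromatin-binding nuclear body proteins induced by interferon, and both late steps, Sp100 and Sp140, were steady without the 3 libraries with a GC trend. It also includes AC147806.2, the gene with the smallest p for a slope. AC147806.2 (chromosome 1, 85526602 to 85552178) had 0.373, 0.495 and 0.242 CPM at 6M, 1.13, 0.674 and 0.929 at 12M, 2.0, 2.25 and 1.40 at 20M, and 12.8, 5.41 and 5.04 at 30M. Here too no libraries of different ages overlapped (slope 0.177, SE 0.0159, adjusted p = 0.000240).

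Igha, the constant gene of IgA, had 12.2, 22 and 12.7 CPM at 6M, 38.6, 31.8 and 48.1 at 12M, 115, 87.0 and 88.4 at 20M, and 50.6, 113 and 55.6 at 30M. The 3 earlier ages did not overlap, and at 30M 2 of the 3 libraries were below all those of 20M. Its slope over 6M to 20M was 0.186 (SE 0.0228, adjusted p = 0.0225), whereas the slope over all ages was not called (0.0949, SE 0.0252, adjusted p = 0.0736). On the plasma cell and antibody list 1 of 18 genes rose, Ighg2b of IgG2b (slope 0.161, SE 0.0370, adjusted p = 0.0433), and that call was lost on leaving out any 1 of 9 libraries (highest adjusted p 0.135) or without the 3 libraries with a GC trend (0.0668). DESeq2 called 5 of the list and voom 8. With edgeR 15 of the 18 slopes were positive. An unadjusted p under 0.05 upward was found for 7 genes over all ages and for 10 over 6M to 20M. Of all tested genes 8.65% and 5.36% had one. A median of 8.4% of the difference between 6M and 30M lay after 20M. On the B cell list none of 16 was called with edgeR, DESeq2 or voom, or had an unadjusted p under 0.05 with edgeR. All 16 had a positive slope over 6M to 20M, none with an unadjusted p under 0.05, while 12 had a negative slope over all ages.

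Macrophage genes gave both shapes. On the interstitial macrophage list 10 of 15 genes rose and none fell, 6 of them steady and 4 late steps, with a median slope of 0.0652. On the Kupffer-like list, genes known from liver macrophages, 7 of 11 rose, 6 as late steps and 1, the scavenger receptor gene Marco, uneven. On the alveolar macrophage list 1 of 11 rose, the integrin gene Itgax, with a median slope of -0.0123. On the monocyte and neutrophil list 2 of 16 rose. Without the 3 libraries with a GC trend the counts were 10, 9, 0 and 4. On age means without them, the 10 called interstitial genes were 4 steady, 4 late steps, 1 middle step and 1 uneven, and the 7 called Kupffer-like genes 2 steady, 3 late steps and 2 uneven.

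Slc11a1 (ENSMUSG00000026177, chromosome 1, 74375195 to 74386062) had 8.13, 8.42 and 3.96 CPM at 6M, 12.3, 9.35 and 8.70 at 12M, 13.5, 19 and 14.6 at 20M, and 24.6, 35.6 and 47.2 at 30M. Each age lay above all younger ones in every library. The slope was 0.0985 (SE 0.0107, adjusted p = 0.00134), with 25.7, 26.1 and 48.2% of the difference in the 3 intervals, close to the shares of the months. Fermt3, an activator of leukocyte integrins (ENSMUSG00000024965, chromosome 19, 6998958 to 7019469), had 24.3, 20.1 and 17.1 CPM at 6M, 24.8, 22.7 and 22.1 at 12M, 29.4, 45.4 and 39.6 at 20M, and 49.8, 55.0 and 84.1 at 30M. Its 6M and 12M libraries overlapped and those of 20M and 30M did not (slope 0.0705, SE 0.00805, adjusted p = 0.00134). Itgb2, the shared chain of the leukocyte integrins, averaged 55.4 ± 12.9, 65.2 ± 2.92, 82.7 ± 13.9 and 158 ± 33.2 CPM from 6M to 30M (SD, n = 3 each). Spi1, which encodes PU.1, averaged 23.7 ± 8.62, 28.3 ± 3.34, 36.6 ± 9.34 and 75.5 ± 4.42 CPM and was steady with 61.7% in the last interval, but a late step both without the 3 libraries with a GC trend and with the trend removed. Both slopes were called at an adjusted p of 0.00151. Slc11a1, Fermt3 and Pld4 were steady in all 4 readings of the shape.

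The 3 chains of C1q lie side by side on chromosome 4 and fell on either side of the limit. C1qc (ENSMUSG00000036896, 136889804 to 136893065) had 22.6, 22.7 and 15.8 CPM at 6M, 34.3, 28.3 and 39.9 at 12M, 36.3, 27.1 and 41.8 at 20M, and 91.8, 94.9 and 66.4 at 30M. Its 12M and 20M libraries overlapped, with 36.5, 1.4 and 62.0% of the difference in the 3 intervals (slope 0.0783, SE 0.00957, adjusted p = 0.00151). C1qa had 67.4% of its difference in the last interval and counted as steady, and C1qb had 78.5% and counted as a late step. Their means ran 30.7 ± 2.91, 41.3 ± 11.9, 44.9 ± 8.84 and 96.1 ± 15.2 CPM for C1qa and 28.0 ± 1.93, 36.2 ± 3.86, 37.8 ± 9.40 and 104 ± 21.3 CPM for C1qb (SD, n = 3 each). With the GC trend removed C1qa was a late step and C1qc uneven, so that the courses of these chains are not told apart by the classes.

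**Figure D4:**
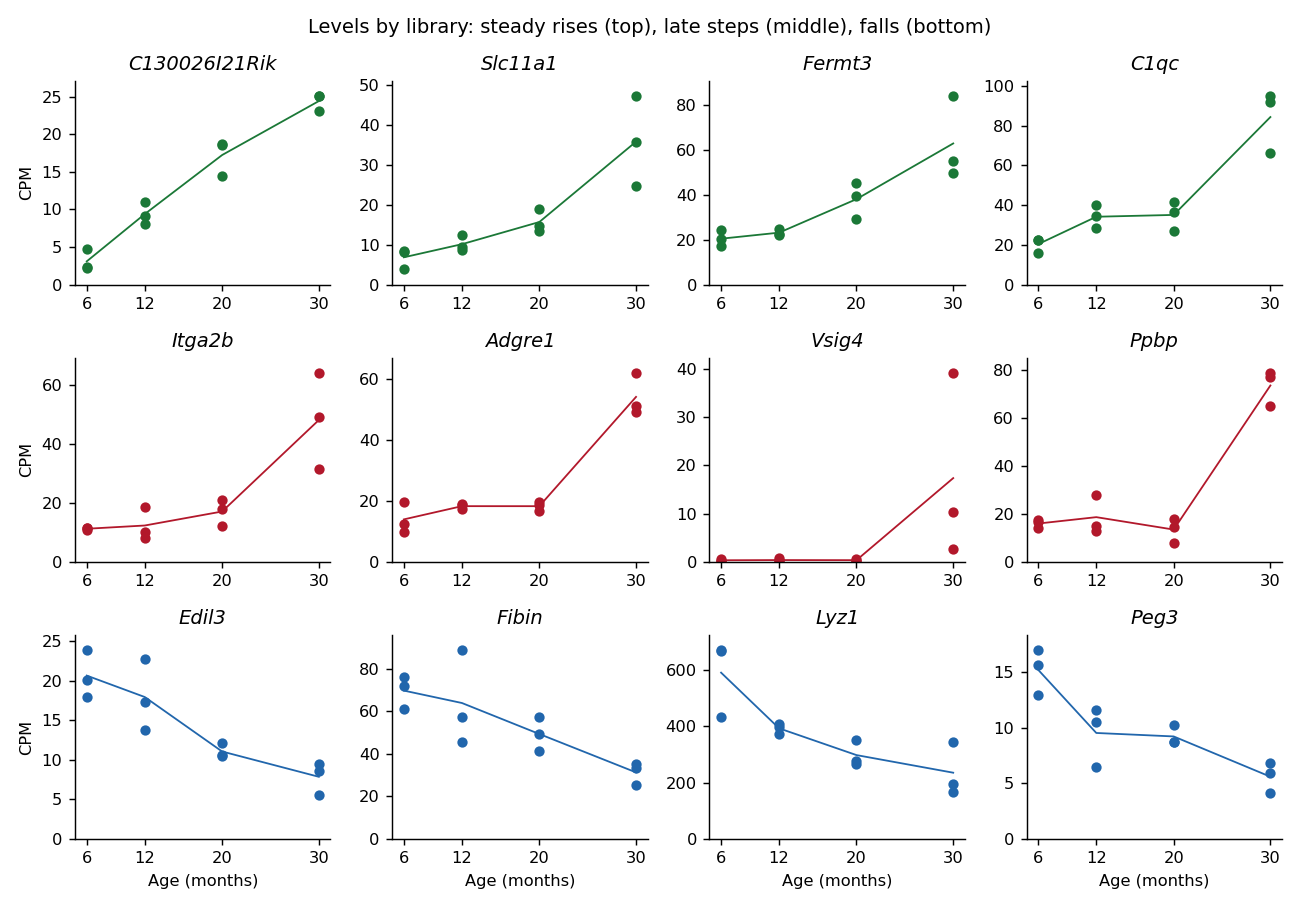
CPM per library (points) against age in months, with the mean of the 3 libraries (line), for 4 steady rises (green, top), 4 late steps (red, middle) and 4 falls (blue, bottom). Slc11a1 stood at 24.6 to 47.2 CPM at 30M and 13.5 to 19 at 20M, while Ppbp stood at 65 to 78.8 CPM at 30M and 7.97 to 28.0 CPM at all younger ages.

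Adgre1, which encodes the macrophage antigen F4/80 (ENSMUSG00000004730, chromosome 17, 57358691 to 57483527), had 19.6, 12.5 and 9.62 CPM at 6M, 18.5, 17.4 and 18.9 at 12M, 19.5, 18.6 and 16.7 at 20M, and 61.9, 51.2 and 49.3 at 30M. The 3 younger ages overlapped and every 30M library was above them (slope 0.0781, SE 0.0109, adjusted p = 0.00189; 77.7% in the last interval). It was a late step in all 4 readings. Clec4a3, a C-type lectin receptor of monocytes, averaged 8.25 ± 0.928, 11.1 ± 2.16, 11.4 ± 3.99 and 38.0 ± 5.04 CPM, a late step with 80.9% in the last interval, but steady without the 3 libraries with a GC trend. F10, which encodes coagulation factor X, had 4.55, 5.61 and 5.90 CPM at 6M, 5.93, 6.32 and 3.88 at 12M, 5.92, 5.81 and 3.69 at 20M, and 32.1, 24.5 and 19.3 at 30M. Nothing separated its 3 younger ages (slope 0.0941, SE 0.0164, adjusted p = 0.00733), and it was a late step in all 4 readings.

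Several Kupffer-like genes were at or near 0 before 30M and uneven among the 30M libraries. Clec4f, a C-type lectin of Kupffer cells, had 0 counts in all libraries of 6M and 12M, 15, 0 and 0 counts at 20M, and 676, 20 and 60 at 30M. Its call was lost without 20M_213 (adjusted p = 0.237), the library with the 15 counts. Vsig4, a complement receptor of resident macrophages (ENSMUSG00000044206, chromosome X, 96247203 to 96293438), had 0.149, 0.495 and 0.242 CPM at 6M, 0.676, 0.253 and 0.0845 at 12M, 0.616, 0.188 and 0.148 at 20M, and 39.1, 10.3 and 2.59 at 30M. The 30M libraries differed among themselves, with 30M_216 highest, yet each was above all younger ones (slope 0.287, SE 0.0474, adjusted p = 0.00733). Cd5l, a secreted macrophage protein, had 84.6, 82.8 and 9.57 CPM at 30M against at most 6.76 CPM in any younger library, and its call was lost without 6M_203 or 30M_218 (adjusted p up to 0.0681). Itgad, an integrin chain of tissue macrophages, was at 5.81, 22.4 and 14.6 CPM at 30M and at most 2.16 CPM before. AI606473, a late step with no role given here, had 10, 23 and 13 counts at 30M and 1 count in all younger libraries together. Without the 3 libraries with a GC trend Clec4f and Cd5l were classed as steady and Itgad as uneven, with 20M_213 alone at 20M. With 0 counts of Clec4f in all libraries of 6M and 12M, its class there shows no rise between these ages. That class rests on the 15 counts of 20M_213. Vsig4 and AI606473 were late steps in all 4 readings.

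Platelet genes were the list with the largest share of late steps among those used here. Of 12 platelet and megakaryocyte genes tested, 10 rose and none fell, 9 as late steps and 1, Gp5, steady, with a median slope of 0.082. Ppbp, a chemokine of platelet granules (ENSMUSG00000029372, chromosome 5, 90768518 to 90770063), had 13.9, 16.4 and 17.5 CPM at 6M, 15.1, 12.8 and 28.0 at 12M, 14.5, 17.8 and 7.97 at 20M, and 78.8, 77.2 and 65 at 30M. Only the 30M libraries stood apart (slope 0.0887, SE 0.0192, adjusted p = 0.0268). The call of Ppbp was lost in 8 of the 12 fits that left out 1 library, with an adjusted p of at most 0.0985, and held without the 3 libraries with a GC trend (0.0113). Its neighbour Pf4, platelet factor 4, averaged 11.4 ± 2.86, 13.4 ± 2.51, 10.9 ± 2.73 and 35.0 ± 7.73 CPM, and its call was lost without 6M_203 or any 1 of the 30M libraries. Without the 30M libraries the fitted slopes of Ppbp, Pf4 and F10 turned to -0.02, -0.0062 and -0.0042 (adjusted p = 0.766 to 0.944). Itga2b (ENSMUSG00000034664, chromosome 11, 102453297 to 102470122) had 11.3, 10.7 and 11.6 CPM at 6M, 8.19, 9.94 and 18.7 at 12M, 12.2, 21 and 17.9 at 20M, and 31.3, 48.9 and 63.9 at 30M, and its 20M libraries were all above those of 6M (slope 0.0892, SE 0.0130, adjusted p = 0.00233). The number of platelet genes called was 2 without 30M_220 and 6 without the 3 libraries with a GC trend. Read without them, 8 of the 10 called genes were late steps, and Gp5 was a late step. On the list of red blood cell precursors 1 of 7 rose, Slc4a1, the anion exchanger of red cells, at 5.0, 17.8 and 9.63 CPM at 30M and 0.25 to 3.29 CPM at the younger ages, and that call was lost in 6 of the 12 fits that left out 1 library.

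Antigen presentation genes rose by small slopes. On the MHC class I list 13 of 22 genes rose and none fell, 5 steady, 5 late steps and 3 uneven, with a median slope of 0.0328. Tap2, a subunit of the peptide transporter (ENSMUSG00000024339, chromosome 17, 34203527 to 34216321), had 94.8, 87.8 and 80.2 CPM at 6M, 104, 111 and 109 at 12M, 107, 134 and 135 at 20M, and 132, 152 and 164 at 30M. Its 6M libraries lay below all others and each later age overlapped with the next (slope 0.0309, SE 0.00510, adjusted p = 0.00489). Tap1, the other subunit, averaged 52.6 ± 14.6, 65.5 ± 8.31, 72.8 ± 6.67 and 125 ± 7.83 CPM and was steady with 61.0% in the last interval, but a late step without the 3 libraries with a GC trend. The class I heavy chain genes H2-K1 and H2-T23 and the light chain gene B2m were late steps, and H2-Q4, H2-Q6 and H2-Q7 steady; reads of these near-identical genes may be split between them. H2-K1 and H2-T23 were steady and B2m, H2-Q4 and Tap2 uneven without the 3 libraries with a GC trend, and 6 genes of the class I list were steady and 2 late steps. On the MHC class II list 7 of 13 rose, 2 steady, 2 late steps and 3 uneven. Ctss, a protease of the class II pathway, averaged 133 ± 19.6, 147 ± 19.7, 149.9 ± 43.5 and 338 ± 93.5 CPM, a late step, and Ciita, the master regulator of class II genes, was steady. Ctss was steady without the 3 libraries with a GC trend, whereas Ciita was then a late step and was no longer called (adjusted p = 0.0846). The number of class II genes called was 2 without 30M_220 and 4 without the 3 libraries with a GC trend.

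Interferon-stimulated genes gave both shapes, and the balance on the type I list turned with the libraries used. The reading without the 3 libraries with a GC trend has 20M_213 alone at 20M. All 38 type I interferon-stimulated genes tested had a positive slope, 13 were called, 6 as late steps, 4 as steady and 3 as uneven, and 35 had an unadjusted p under 0.05 upward, as 8.65% of all tested genes did. A positive slope was found in 51.3% of all tested genes. The number called was 4 without 30M_216 and 26 without the 3 libraries with a GC trend, and on age means without those 3 libraries the 13 were 10 steady, 1 late step, 1 middle step and 1 uneven. Oas2, a sensor of double-stranded RNA (ENSMUSG00000032690, chromosome 5, 120730333 to 120749853), had 9.55, 17.6 and 10.2 CPM at 6M, 13.4, 14.5 and 11.3 at 12M, 27.8, 17.2 and 23.9 at 20M, and 106, 38.0 and 37.8 at 30M. 30M_216 was far above the other 30M libraries, and these were above all younger ones (slope 0.0989, SE 0.0147, adjusted p = 0.00297; steady). Zbp1, a sensor of nucleic acids that can start cell death, had 99.4, 44.5 and 22.8 CPM at 30M, where 30M_220 lay below 20M_213 at 23.9 (adjusted p = 0.0108; late step, but steady without the 3 libraries with a GC trend). Of the 17 interferon gamma GTPases and factors all slopes were positive and 7 were called, 5 as late steps in the main reading and also without the 3 libraries with a GC trend. The number called was 3 without 6M_202, 6M_203, 30M_216 or 30M_218, up to 13 without another library, and 11 without the 3 libraries with a GC trend. Gbp5 (ENSMUSG00000105504, chromosome 3, 142493978 to 142522344) had 16.5, 10.1 and 11.6 CPM at 6M, 19.2, 22.3 and 13.4 at 12M, 13.1, 20.6 and 14.8 at 20M, and 44.8, 48.5 and 42.8 at 30M. The 3 younger ages overlapped and the 30M libraries lay close together above them (slope 0.0704, SE 0.0116, adjusted p = 0.00495). Irgm2 averaged 44.7 ± 7.53, 66.9 ± 15.2, 54.9 ± 7.38 and 121 ± 13.0 CPM, a late step in all 4 readings like Gbp5. Cybb, also with the paired GAAA motif in its promoter, averaged 42.5 ± 9.97, 59.4 ± 14.1, 64.0 ± 19.4 and 172 ± 44.7 CPM, a late step with 71.7% in the last interval that was steady without the 3 libraries with a GC trend.

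**Figure D5:**
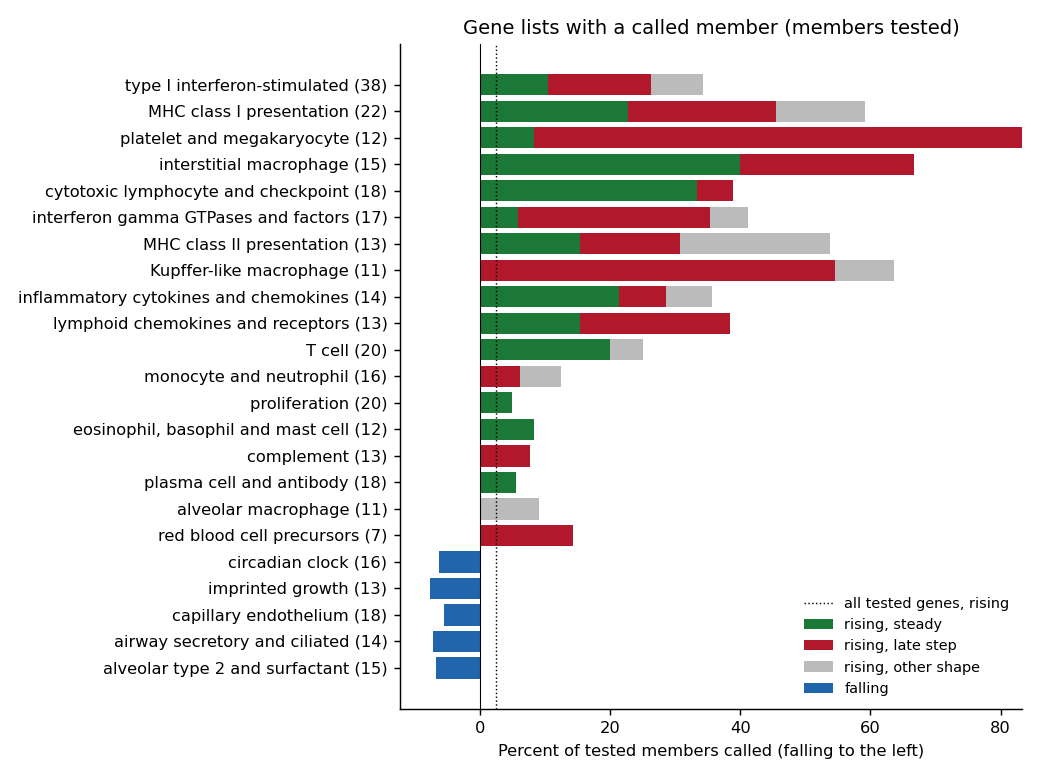
Percent of the tested members of each list (number in brackets) called for a slope over 6M to 30M, rising to the right by shape and falling to the left; the dotted line is the 2.5% of all tested genes called rising. Platelet genes reached 83.3% with 9 of 10 as late steps, and the cytotoxic lymphocyte list 38.9% with 6 of 7 steady.

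The called lymphocyte genes were mostly steady. On the T cell list all 20 slopes were positive and 5 genes rose, 4 steady and 1, the coreceptor chain Cd8a, a middle step. Lat, an adaptor of T cell receptor signalling, averaged 10.2 ± 1.51, 11.7 ± 1.48, 16.9 ± 2.69 and 22.5 ± 6.41 CPM (SD, n = 3 each; slope 0.0495, SE 0.00824, adjusted p = 0.00512). On the cytotoxic and checkpoint list 7 of 18 rose, 6 of them steady and 1, the checkpoint receptor gene Havcr2, a late step that was steady without the 3 libraries with a GC trend. Ccl5, a chemokine of T and NK cells (ENSMUSG00000035042, chromosome 11, 83525778 to 83530518), had 13.4, 15.9 and 12.8 CPM at 6M, 16.0, 22.1 and 36.1 at 12M, 52.2, 16.6 and 20.1 at 20M, and 62.4, 70 and 54.8 at 30M. At 20M only 20M_213 was near the level of 30M, and the other 20M libraries lay within the range of 12M (slope 0.0835, SE 0.0146, adjusted p = 0.00768). The granzyme gene Gzmk had the same library high at 20M, with 8.85, 0.375 and 1.03 CPM there and 7.58, 8.69 and 5.56 at 30M (slope 0.152, adjusted p = 0.0288). The calls of the T cell list numbered 2 without 6M_203, 30M_218 or 30M_220, and those of the cytotoxic list 2 without 30M_220. The chemokine Cxcl13, which draws B cells, was a late step at 37.7, 22.6 and 46.0 CPM at 30M against 1.88 to 11.9 CPM at the younger ages (adjusted p = 0.0174), and the chemokine receptor genes Cxcr3 and Cxcr6 were steady. Cxcl13 was steady and Cxcr6 uneven without the 3 libraries with a GC trend, and Cxcr3, steady in all 4 readings, was then no longer called (adjusted p = 0.0753). On the list of lymphoid chemokines 5 of 13 rose, and 1 without 6M_203. Among inflammatory cytokines 5 of 14 rose, and 1 without 6M_203 or 30M_218. Ccl4, Ccl3 and Il10 were steady, Tnf uneven and Saa3, an acute-phase protein, a late step at 16.9, 294 and 37.4 CPM at 30M, where 30M_218 was the high library. Saa3 was steady without the 3 libraries with a GC trend.

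A few genes rose mainly before 30M. Podnl1, a matrix proteoglycan, had 1.72, 1.73 and 1.62 CPM at 6M, 2.48, 1.09 and 1.69 at 12M, 4.46, 6.25 and 6.64 at 20M, and 5.24, 5.82 and 8.15 at 30M. The libraries of 20M and 30M overlapped and all were above those of 6M and 12M, a middle step with 93.2% between 12M and 20M in all 4 readings (slope 0.0923, SE 0.0164, adjusted p = 0.00746). Prg2, the major basic protein of eosinophil granules, had 0.149, 0.0825 and 0.162 CPM at 6M, 1.05, 0.0842 and 0.845 at 12M, 4.62, 1.0 and 3.91 at 20M, and 7.58, 4.26 and 3.23 at 30M. It was the 1 gene of 12 called on the eosinophil, basophil and mast cell list, with 19.2% of its difference after 20M (slope 0.190, SE 0.0334, adjusted p = 0.00733). Il12rb1, a receptor chain for IL-12 and IL-23, had 10.4% of its difference after 20M, counted as steady, or as a middle step without the 3 libraries with a GC trend, and averaged 0.707 ± 0.170, 1.19 ± 0.472, 2.80 ± 0.106 and 3.40 ± 1.20 CPM.

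The 33 falling genes were few, and over all libraries the interval between 12M and 20M held the largest median share of their falls. Without the 3 libraries with a GC trend, and so with 20M_213 alone at 20M, it was the interval after 20M. All 33 had a negative slope over 6M to 20M as well, 28 of them with an unadjusted p under 0.05, and 8 fell faster after 20M. These genes were called from a fit that holds the same libraries, so the counts are a description. Their median GC content was 45.8%, and the falling class lay lowest of its age in the libraries with a GC trend. Most of these calls were lost without those libraries, which leaves 20M_213 alone at 20M. With the GC trend removed 25 were kept. Leaving out single libraries kept 5 without 30M_220, 6 without 6M_203, 9 without 30M_218 and 30 without 20M_222. The part of the GC trend in these calls was not tested. Edil3, a secreted integrin ligand (ENSMUSG00000034488, chromosome 13, 88821472 to 89323223), had 20.1, 23.9 and 17.9 CPM at 6M, 13.7, 17.4 and 22.7 at 12M, 12.1, 10.6 and 10.5 at 20M, and 9.43, 5.50 and 8.60 at 30M. The libraries of 20M did not overlap with those of any other age (slope -0.0612, SE 0.00902, adjusted p = 0.00233). Its call held without the GC trend libraries (adjusted p = 0.00894) and without any single library (up to 0.00936), and it was steady in all 4 readings. Lyz1, a lysozyme gene of alveolar type 2 cells (ENSMUSG00000069515, chromosome 10, 117287797 to 117292868), had 435, 671 and 668 CPM at 6M, 408, 399 and 373 at 12M, 350.1, 277 and 267 at 20M, and 344, 194 and 168 at 30M. It had 40.9, 29.8 and 29.3% of its fall in the 3 intervals (slope -0.0536, SE 0.00971, adjusted p = 0.00782), and 30M_216 was within the range of 20M. Its reads may be shared with the near-identical Lyz2.

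Peg3, an imprinted zinc finger gene, had 13.0, 15.7 and 17.0 CPM at 6M, 11.6, 10.5 and 6.50 at 12M, 8.70, 10.2 and 8.71 at 20M, and 5.89, 4.10 and 6.79 at 30M. The 6M libraries were above all others, and 12M_208 reached the level of 30M (slope -0.0544, SE 0.0101, adjusted p = 0.00909). On the list of imprinted growth genes it was the 1 gene of 13 called. Fibin, a secreted protein gene, averaged 69.6 ± 7.89, 63.8 ± 22.2, 49.3 ± 7.95 and 31.2 ± 5.21 CPM and was called at an adjusted p of 0.00768, steady over all libraries and a late step without the 3 libraries with a GC trend. Among middle steps, Clock, a circadian transcription factor, averaged 96.4 ± 3.45, 104 ± 3.26, 75.4 ± 6.41 and 68.8 ± 11.0 CPM (slope -0.0246, SE 0.00573, adjusted p = 0.0314), and its call was lost without the GC trend libraries (adjusted p = 0.105) and with the trend removed (0.0994). Enpep, a peptidase that cleaves angiotensin, averaged 166 ± 9.53, 159 ± 4.73, 122 ± 11.7 and 121 ± 10.3 CPM, with 82.5% of its fall between 12M and 20M, and its call was lost in 8 of the 12 fits that left out 1 library. Scgb3a1, a secretoglobin of airway secretory cells, averaged 334 ± 65, 289.6 ± 45.6, 149 ± 69.8 and 158 ± 16.0 CPM. It was the 1 gene of 14 called on the airway list with edgeR. Its call held without the GC trend libraries (adjusted p = 0.00562) but was lost in 8 of the 12 fits that left out 1 library (highest adjusted p 0.12). Without the GC trend libraries Enpep and Scgb3a1 were steady.

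The late falls were Bmp2 and Apln. Bmp2, a ligand of the BMP pathway, averaged 7.0 ± 0.691, 6.85 ± 0.795, 5.85 ± 0.807 and 3.72 ± 0.839 CPM, with 71.4% after 20M (adjusted p = 0.0408, and 0.104 without the GC trend libraries). Apln, the ligand of the apelin receptor, made by capillary endothelium, had 44.4, 35.0 and 28.9 CPM at 6M, 30.0, 36.1 and 45.9 at 12M, 18.9, 44.3 and 25.8 at 20M, and 13.6, 13.6 and 19.3 at 30M. The younger ages overlapped and 20M_213 lay within the range of 30M (slope -0.0519, SE 0.0128, adjusted p = 0.0435). It was called without the GC trend libraries (0.00741) but not without 10 of the 12 single libraries (adjusted p up to 0.153), and neither gene was a late step in all 4 readings. On the capillary list Apln was the 1 gene of 18 called with edgeR, and DESeq2 called 1 upward and 2 downward.

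Several groups often measured in ageing tissue had no or 1 called slope with edgeR. Of 15 senescence and p53 genes none was called, with 2 upward and 3 downward at an unadjusted p under 0.05, which held for 8.65% of all tested genes upward and 4.63% downward. DESeq2 called 1 each way and voom none, and edgeR called 1 upward without the GC trend libraries, with the trend removed or with a term for those libraries. The cell cycle inhibitors Cdkn2a and Cdkn1a had adjusted p of 0.836 and 0.764. None of 22 collagen genes was called by edgeR, DESeq2 or voom (4 downward at an unadjusted p under 0.05), and none of 23 elastic fibre and matrix genes was called by edgeR or voom (1 each way at an unadjusted p under 0.05), with 1 downward by DESeq2. Without the GC trend libraries 1 collagen gene was called downward. In that fit 9 collagen genes had an unadjusted p under 0.05 downward, against 3.93% of all tested genes. Both counts were the same with a term for those libraries. On the proliferation list 1 of 20 rose, Mki67, a marker of dividing cells, at 12.2 ± 2.01, 17.2 ± 3.29, 17.7 ± 6.00 and 30.5 ± 5.52 CPM (adjusted p = 0.0114), and its call was lost without 30M_218 (0.0577). On that list 18 slopes were positive, as were 51.3% of all tested genes. Of the 20 genes 7 had an unadjusted p under 0.05 upward and none downward, and 9 did upward without the GC trend libraries.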

How the data were processed

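RNA-seq read counts of 12 mouse lung libraries were analysed. The values the authors deposited are unnormalized counts, whole numbers for each gene. HISAT2 2.1.0, featureCounts (version not given), Trimmomatic 0.38 and FastQC 0.11.7 are named as tools, and GRCm38 (mm10) as build, per the submitters' processing notes; whether counting used the strand is not given in the sources used here. The labels do not say that replicate numbers are separate animals, so p-values measure the spread between libraries, and counts carry counting error.

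Genes passing filterByExpr by age (minimum count 10) were tested in edgeR 4.0.16 by its quasi-likelihood test (TMM, robust, R 4.3.3). The slope took months as 1 term over all 12 libraries; the other contrasts came from a fit of the 4 ages. Calls need a Benjamini-Hochberg adjusted p under 0.05. Levels are CPM, as mean ± SD. The SE of a slope is its absolute value divided by the square root of the F statistic of its test. It is thus drawn from that test and is not a separate estimate. Shapes used means of log2 CPM with a prior count of 2. The script was tested on simulated data.

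Named genes are those called with at least 1 CPM in their highest age, without predicted genes and antigen receptor segments, with the smallest p (10 each way and 4 per shape), the largest or earliest slopes (5 each way), and up to 4 members of each list. Spi1, Cybb, Gzmk, Ciita, B2m and the H2 and Sp genes were named after their values were seen. Members and lists were chosen with earlier results of these data known. Alternatives were DESeq2 1.42.0 and its size factors, quality-weighted voom in limma 3.58.1, filters, GC corrections, other age scales, other shape rules and each library or age left out. GC content came from GENCODE M21 transcripts, for 18382 of the 18407 genes tested.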

Additional observations from a re-analysis of the deposited data

How the results depend on the processing

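No paired analysis was possible because the ages share no replicate numbers. The 494 called slopes kept their sign under each normalization, filter, test, GC correction and age scale and without each single library, except that 465 of them were tested with a filter of at least 1 CPM in 6 libraries. Against 461 rising and 33 falling calls, DESeq2 gave 726 and 174, voom 78 falling, a term for the 3 GC libraries 55 falling, and log2 months 237 and 17. Leaving out an age, chosen after seeing the data, gave 63 and 3 without 6M, 226 and 10 without 12M, 21 falling without 20M, and 1 and 0 without 30M. Without the 30M libraries the slopes of F10 (-0.0042), Ppbp (-0.0199), Pf4 (-0.0062) and Slc4a1 (-0.0058) reversed.

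Leaving out single libraries gave 224 to 572 rising genes (224 without 6M_203, 249 without 30M_220, 273 without 30M_218) and 5 to 105 falling ones (5 without 30M_220, 10 without 6M_203, 15 without 30M_218, 16 without 12M_206, 18 without 6M_202, 19 without 12M_207, 64 without 12M_208, 105 without 30M_216). The joint test gave 67 to 285 genes, the departure from a line 0 to 0, the slope over 6M to 20M 0 to 5 rising and 0 to 0 falling, and the later minus earlier rate 0 to 0 faster and 0 to 5 slower. Steady rises ran from 34.9% to 58.1% and late steps from 26% to 46.2% of the 461 rising genes, and steady falls from 48.5% to 81.8% of the 33 falling ones.

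Against 205 genes, the joint test called 316 without a count filter, 788 with DESeq2 and 586 with voom. Against 0, the departure from a line was called for 38 genes with DESeq2 and 2 without the GC libraries, and the later minus earlier rate for 17 faster with DESeq2 and, slower, for 26 with DESeq2, 4 without the GC libraries and 1 without a filter. The slope over 6M to 20M was called for 53 rising and 7 falling with DESeq2, 605 and 668 with voom, and 5 rising without the GC libraries. voom gave 20M_221 a weight of 2.01 and 20M_213 one of 0.432. Late steps made up 21.5% of the rising genes with a limit of 80% and 60.3% on linear CPM means, against 37.7%. The cause of these differences was not tested.

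With 3 libraries an age, slopes of small size and the order of the classes within an age interval are limited by the spread between libraries, with a biological coefficient of variation of 0.254 in the slope fit.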

Other observations

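Genes of the alveolar surface all had negative slopes, below the size called for most. On the alveolar type 1 list, the flat cells of gas exchange, all 12 slopes were negative, against 48.7% of all tested genes, with a median of -0.0203. None was called with edgeR, while 9 had an unadjusted p under 0.05 downward, against 4.63% of all tested genes; DESeq2 called 4 and voom 2. Rtkn2, a type 1 marker, had 293, 321 and 397 CPM at 6M, 345, 338 and 287 at 12M, 303, 227 and 238 at 20M, and 274, 214 and 204 at 30M (adjusted p = 0.0616). The libraries of 6M and 30M did not overlap, and those of 12M and 20M did. On the alveolar type 2 and surfactant list all 15 slopes were negative with a median of -0.0138, and Lyz1 alone was called with edgeR, where DESeq2 and voom called 2 each. Over 6M to 20M the median slopes were steeper, at -0.03 on the type 1 and -0.0298 on the type 2 list. Of the difference between 6M and 30M, medians of 10.9% and -3.5% lay after 20M. The part of the GC trend libraries of 20M in these shares was not tested. Without the 3 libraries with a GC trend 6 type 1 and 2 type 2 genes had an unadjusted p under 0.05 downward, against 3.93% of all tested genes.

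Immediate early and heat shock genes, which respond within minutes to handling of tissue, also sloped downward in all 18 cases, with a median of -0.0257. Of all tested genes 48.7% had a negative slope. None of the 18 was called with edgeR or voom, and DESeq2 called 2. With edgeR 6 had an unadjusted p under 0.05 downward, as did 4.63% of all tested genes. Without the 3 libraries with a GC trend 1 had an unadjusted p under 0.05. Fos, a subunit of the AP-1 factor, had 85.5, 62.8 and 26.4 CPM at 6M, 46.8, 60.6 and 31.0 at 12M, 51.1, 33.1 and 28.6 at 20M, and 36.1, 18.3 and 26.8 at 30M (adjusted p = 0.153). 6M_203 was within the range of 30M.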
